A study of Mus musculus with 3 samples.

Results

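The genes described here are 9 members of the epidermal growth factor (EGF) family: the ligand genes Areg, Ereg, Btc, Epgn, Hbegf and Tgfa and the receptor genes Egfr, Erbb2 and Erbb3. They were taken by name from gene tables that hold 22658 gene models, and all 9 were found. The cells were NB490, a mouse pancreatic cancer line kept under puromycin to hold a short hairpin RNA (shRNA) that targets PDX1, a transcription factor of pancreas development, and that doxycycline switches on. Nascent RNA was read by Bru-seq, in which bromouridine given to the cells for 30 min marks the RNA made in that window, which is then captured and sequenced. The 3 conditions, with 1 library each, were cells that carried the shRNA but were not induced, the same cells kept in doxycycline for 48 h, and cells grown out in doxycycline for over 3 weeks.

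EGF family ligands are made as membrane-bound precursors and are cut free at the cell surface, mainly by ADAM proteases, after which they bind receptors on the same or neighbouring cells. Amphiregulin (Areg) and transforming growth factor alpha (Tgfa) bind EGFR, whereas epiregulin (Ereg), betacellulin (Btc) and heparin-binding EGF-like growth factor (Hbegf) bind EGFR and ERBB4. The receptors work as pairs, and ERBB2 has no known ligand of its own while ERBB3 has a weak kinase. In pancreatic ductal cancer, signalling through EGFR is known to take part in the formation of early lesions.

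Each comparison sets single libraries against each other, without replicates, and carries no p-value. Intervals are 95% intervals for counting error alone and do not cover variation between cultures. The libraries rested on 51006774 reads in uninduced cells, 48418864 at 48 h and 41632296 in grown-out cells. Levels are given as RPKM, a read density corrected for gene length and sequencing depth, with introns and exons together. A gene counted as measured where its mean over the 3 libraries was at least 0.5 RPKM, which 7915 models met. A doxycycline control lacking the hairpin was not analysed here, so effects of the drug and of the hairpin cannot be told apart. In such bulk samples, fewer cells of a type and less RNA per cell cannot be told apart either.

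Pdx1 itself had 1.59 RPKM in the uninduced library, 1.05 RPKM at 48 h and 1.41 RPKM in grown-out cells. An shRNA acts on finished RNA, so these nascent levels do not measure how far the protein was reduced. The epithelial marker genes Krt8, Krt18, Krt19 and Cdh1 were measured in all libraries, with a summed level, including Epcam, of 37.4 RPKM at 48 h and 40.3 RPKM in grown-out cells against 43.6 RPKM in uninduced cells. Epcam was under 0.1 RPKM in each library. Fibroblast, endothelial, acinar and endocrine marker lists had no measured gene, and the 5 endocrine markers were at 0 reads throughout. The 5 immune markers summed to 1.37 RPKM at 48 h and 1.37 RPKM in grown-out cells against 2.41 RPKM in uninduced cells, carried by Cd14 and Cd68, with Lyz2 and Csf1r at 0 reads. The part of these markers in the results below was not tested.

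The 4 ligand genes Epgn, Ereg, Areg and Btc lie near each other on chromosome 5, in a stretch where the models run from position 91456543 to 91832020. Coordinates here are those of the gene tables, whose mouse genome build is not given in the sources used here. Areg spans 91568641 to 91577458 on the plus strand, Ereg 91503643 to 91522675 on the plus strand, Epgn 91456543 to 91464238 on the plus strand and Btc 91786287 to 91832020 on the minus strand. Tgfa lies on chromosome 6 (86145245 to 86225443, plus strand). Egfr (16652206 to 16813910, plus strand) and Erbb2 (98273798 to 98299030, plus strand) lie on chromosome 11 and Erbb3 on chromosome 10 (128006424 to 128026557, minus strand). The models differ in length from 7696 bp for Epgn to 161705 bp for Egfr, and each was scaled by its full span. None overlapped another model on its own strand. Erbb2 met 1810046J19Rik on the opposite strand at its last bases, and lay under a Mir684-1 model, also on the opposite strand, whose span of over 3 Mb kept it out of the measured genes. Reads kept their strand: 38 models nested on the opposite strand of a gene of at least 2 RPKM had a median of 0.00119 times its read density, against 1.1 times for 12 nested on the same strand.

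Promoter sequences from RefSeq (GRCm38.p6) were used for 6 of the 9 members: Epgn, Areg, Btc, Tgfa, Egfr and Erbb2. The absence of the other members does not show that no sequence could be matched for them. Shown are the 250 bases before the start of Areg and Btc, ligand genes of the chromosome 5 stretch that were higher in grown-out cells, and of Egfr, the receptor gene that was lower there. The Areg window is chr5:91139349-91139598 on the plus strand, the Btc window chr5:91402995-91403244 on the minus strand and the Egfr window chr11:16751953-16752202 on the plus strand. Each is read 5′ to 3′, and capitals mark the motifs found.
Areg: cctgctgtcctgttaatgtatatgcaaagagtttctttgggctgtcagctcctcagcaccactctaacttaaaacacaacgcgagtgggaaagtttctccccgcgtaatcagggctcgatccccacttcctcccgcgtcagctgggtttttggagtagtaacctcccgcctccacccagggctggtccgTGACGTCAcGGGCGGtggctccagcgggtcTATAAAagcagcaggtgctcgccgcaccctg
Btc: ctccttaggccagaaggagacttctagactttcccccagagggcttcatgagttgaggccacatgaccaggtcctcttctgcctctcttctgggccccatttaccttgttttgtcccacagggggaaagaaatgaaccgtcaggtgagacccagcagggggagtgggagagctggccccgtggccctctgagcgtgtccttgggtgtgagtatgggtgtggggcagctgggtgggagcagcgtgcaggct
Egfr: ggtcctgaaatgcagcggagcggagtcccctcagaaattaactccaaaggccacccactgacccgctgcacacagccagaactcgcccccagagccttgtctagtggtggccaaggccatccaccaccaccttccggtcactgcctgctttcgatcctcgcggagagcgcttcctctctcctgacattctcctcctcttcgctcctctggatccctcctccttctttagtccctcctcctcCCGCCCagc
The motifs searched, on both strands, were TGACGTCA (the cAMP response element), TGANTCA (the AP-1 element), TATAAA (the TATA box), TAATTA (a homeodomain core) and GGGCGG (a GC box). The Areg window held TGACGTCA from -61 to -54, counted from the start, a letter string present in 1.55% of 32851 promoter windows of the same length. It also held GGGCGG from -52 to -47, found in 32.7% of windows, and TATAAA from -31 to -26, found in 12.4%. The Egfr window held GGGCGG on the opposite strand from -9 to -4, and the Btc window held none of the 5 motifs. Among the windows not shown, that of Epgn held TATAAA from -86 to -81. The Tgfa window held GGGCGG from -126 to -121 and, on the opposite strand, from -15 to -10. The Erbb2 window held none of the 5 motifs. A match is a description of the letters and does not show that a factor bound there.

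Among the ligands, Hbegf and Areg were transcribed at the highest levels per length and Epgn at the lowest. Hbegf, on chromosome 18 (36664581 to 36675459, minus strand), had 6.60 RPKM in the uninduced library, 4.90 RPKM at 48 h and 4.48 RPKM in grown-out cells, on 2027 to 3664 reads. Areg had 4.54 RPKM in uninduced cells, 2.41 RPKM at 48 h and 6.30 RPKM in grown-out cells, on 1031 to 2314 reads. Ereg had 2.64 RPKM in uninduced cells, 1.73 RPKM at 48 h and 3.80 RPKM in grown-out cells, on 1597 to 3011 reads. Areg and Ereg were thus lowest at 48 h and highest in grown-out cells, whereas Hbegf was highest in uninduced cells. The counting intervals of the 3 libraries did not overlap for any of these genes. Tgfa had levels of 0.744, 0.634 and 0.688 RPKM in that order, which varied least among the measured ligands. Btc had 0.422 RPKM (0.396 to 0.449) in uninduced cells, 0.378 RPKM (0.352 to 0.404) at 48 h and 0.584 RPKM (0.550 to 0.619) in grown-out cells. Its grown-out level stood above both others, whose intervals overlapped. Epgn, which encodes epigen, rested on only 26, 16 and 20 reads, at 0.0662, 0.0429 and 0.0624 RPKM, and no order of its libraries could be read from these.

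The receptor genes were transcribed at lower levels per length than the main ligand genes. Egfr had 0.590 RPKM (0.574 to 0.607) in uninduced cells, 0.526 RPKM (0.510 to 0.542) at 48 h and 0.410 RPKM (0.395 to 0.426) in grown-out cells, on 2761 to 4867 reads. Its level was lower at each later time, with intervals that did not overlap. Erbb2 had 0.433 RPKM (0.398 to 0.470), 0.404 RPKM (0.370 to 0.442) and 0.480 RPKM (0.439 to 0.524) in that order of libraries. These intervals overlapped, on 494 to 557 reads. Erbb3 had 0.0954, 0.0698 and 0.0740 RPKM on 98, 68 and 62 reads, also with overlapping intervals. With mean levels of 0.509 RPKM for Egfr, 0.461 for Btc and 0.439 for Erbb2, the expression minimum fell between these genes. The 5 measured members were Areg, Ereg, Hbegf, Tgfa and Egfr.

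**Figure D1:**
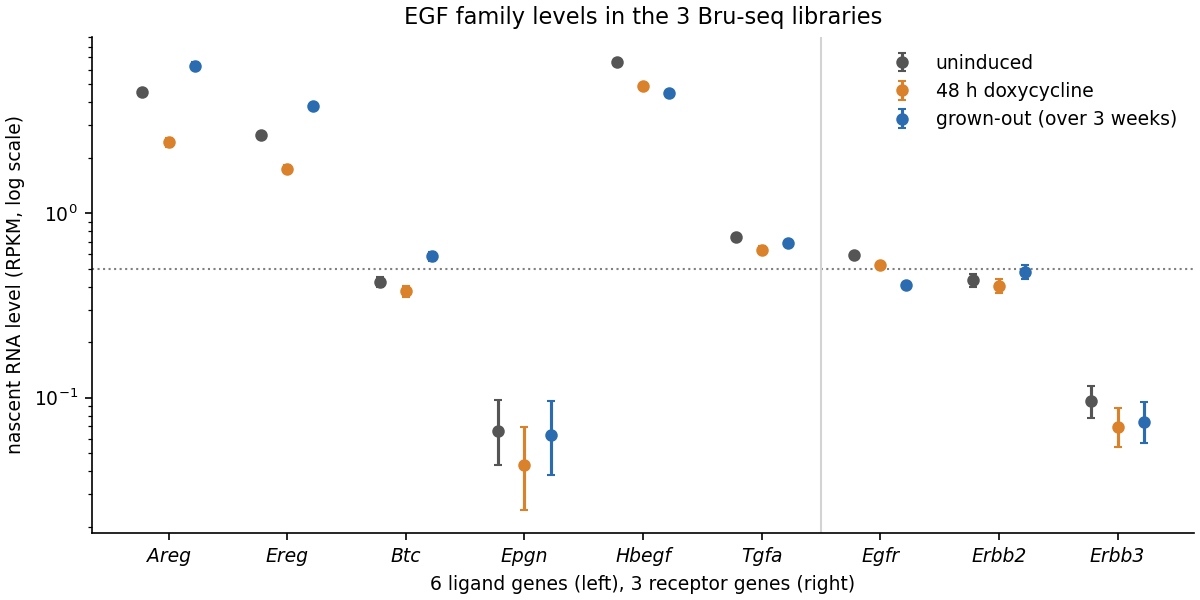
Level of each EGF family gene (vertical axis, RPKM on a log scale) in the 3 libraries (colours), with 95% Poisson intervals for counting error and a dotted line at 0.5 RPKM. Areg, Ereg and Btc were highest in grown-out cells, Hbegf and Egfr in uninduced cells, and Epgn and Erbb3 were under 0.1 RPKM throughout.

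Within the uninduced library the order of levels was Hbegf, Areg, Ereg, Tgfa, Egfr, Erbb2, Btc, Erbb3 and Epgn. Erbb2 and Btc could not be told apart, with a ratio of 1.03 (0.923 to 1.14), and neither could Erbb3 and Epgn, at 1.44 (0.927 to 2.31). At 48 h the order was the same, and the same neighbours could not be told apart, with ratios of 1.07 (0.956 to 1.20) and 1.63 (0.932 to 3.00). In grown-out cells Areg stood first, at 1.41 times the Hbegf level (1.326 to 1.496), against 0.687 times in uninduced cells (0.650 to 0.725). Among the receptors, Egfr then stood below Erbb2, at 0.854 times its level (0.776 to 0.940), against 1.36 times in uninduced cells (1.249 to 1.491). The ratio of Areg to Ereg moved less: it was 1.72 (1.62 to 1.82) in uninduced cells, 1.39 (1.29 to 1.51) at 48 h and 1.66 (1.57 to 1.75) in grown-out cells.

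The makeup of ligand transcription differed accordingly. The 6 ligand genes summed to 15.0 RPKM in uninduced cells, 10.1 RPKM at 48 h and 15.9 RPKM in grown-out cells. Hbegf held 44.0%, 48.5% and 28.1% of this sum in the same order, and Areg 30.2%, 23.9% and 39.6%. Ereg held 17.6%, 17.1% and 23.9%, while Btc, Epgn and Tgfa together stayed the small part. Summed receptor levels were 1.12, 1.00 and 0.964 RPKM, of which Egfr held 52.8%, 52.6% and 42.5%. The grown-out library therefore had close to the uninduced sum of ligand levels, with more of it from Areg and Ereg and less from Hbegf.

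**Figure D2:**
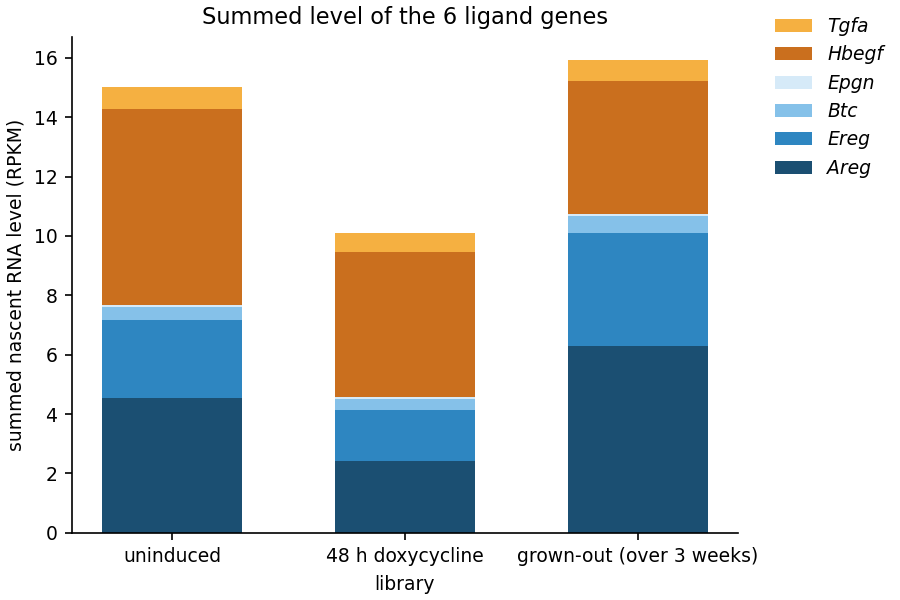
Summed level of the 6 ligand genes (vertical axis, RPKM from 0) in each library, split by gene in colours. The sum was 15.0 RPKM in uninduced cells, 10.1 RPKM at 48 h and 15.9 RPKM in grown-out cells, where the Hbegf part was smallest.

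The first comparison asked how the family differed 48 h after the shRNA was switched on. Every member had a lower level at 48 h than in the uninduced library, and Areg and Ereg differed most among those with enough reads. Areg had 2.41 RPKM at 48 h against 4.54 RPKM uninduced, 1.88-fold lower (1.74 to 2.03), and only 72 of 7915 measured genes had a smaller log2 ratio. Ereg had 1.73 RPKM at 48 h against 2.64 RPKM uninduced, 1.52-fold lower (1.43 to 1.62), with 256 genes below it. Both were called past 1.5-fold lower, meaning that the log2 ratio of RPKM plus 0.05 was beyond that limit and that a ratio of no change lay outside the interval. Ereg sat at the limit, with a log2 ratio of -0.59, and was not called with a pseudocount of 0.5 RPKM, which gave -0.49. Of all measured genes, 3.27% were called lower by this rule and 0.379% higher.

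Hbegf had 4.90 RPKM at 48 h against 6.60 RPKM uninduced, 1.35-fold lower (1.28 to 1.42). Tgfa was 1.17-fold lower (1.11 to 1.24), Btc 1.12-fold lower (1.02 to 1.23) and Egfr 1.12-fold lower (1.08 to 1.17). The intervals of Erbb2, at 1.07-fold lower (0.947 to 1.21), Erbb3, at 1.37-fold lower (0.994 to 1.89), and Epgn, at 1.54-fold lower (0.797 to 3.08), included no change. Counting error alone was thus exceeded by 6 of the 9 members, all lower, and 30.0% of all measured genes were lower and 30.1% higher by that looser rule. The median log2 ratio was -0.28 over all 9 members and 0.0 over all measured genes.

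The second comparison set grown-out cells against uninduced cells. The members lay on both sides of the uninduced level: Areg, Ereg and Btc were higher, and Hbegf, Egfr and Tgfa lower. No member was called past 1.5-fold, against 1.07% of measured genes called higher and 2.93% called lower. Ereg had 3.80 RPKM in grown-out cells against 2.64 RPKM uninduced, a ratio of 1.44 (1.37 to 1.52), and 148 measured genes had a larger log2 ratio. Areg had 6.30 RPKM against 4.54 RPKM uninduced, a ratio of 1.39 (1.31 to 1.48), with 199 genes above it. Btc had 0.584 RPKM against 0.422 RPKM uninduced, a ratio of 1.38 (1.27 to 1.51).

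The genes below the uninduced level differed by similar sizes. Hbegf had 4.48 RPKM in grown-out cells against 6.60 RPKM uninduced, 1.48-fold lower (1.397 to 1.558), and 263 measured genes had a smaller log2 ratio. Egfr had 0.410 RPKM against 0.590 RPKM uninduced, 1.44-fold lower (1.37 to 1.51), with 371 genes below it. Tgfa was 1.08-fold lower (1.03 to 1.14). The intervals of Erbb2, with a ratio of 1.11 (0.983 to 1.255), Erbb3, at 0.775 (0.555 to 1.08), and Epgn, at 0.942 (0.499 to 1.75), included no change. By counting error alone 3 of the 9 members were higher and 3 lower, where 33.6% of all measured genes were higher and 29.5% lower. The median over the 9 members, a log2 ratio of -0.05, hides this split.

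**Figure D3:**
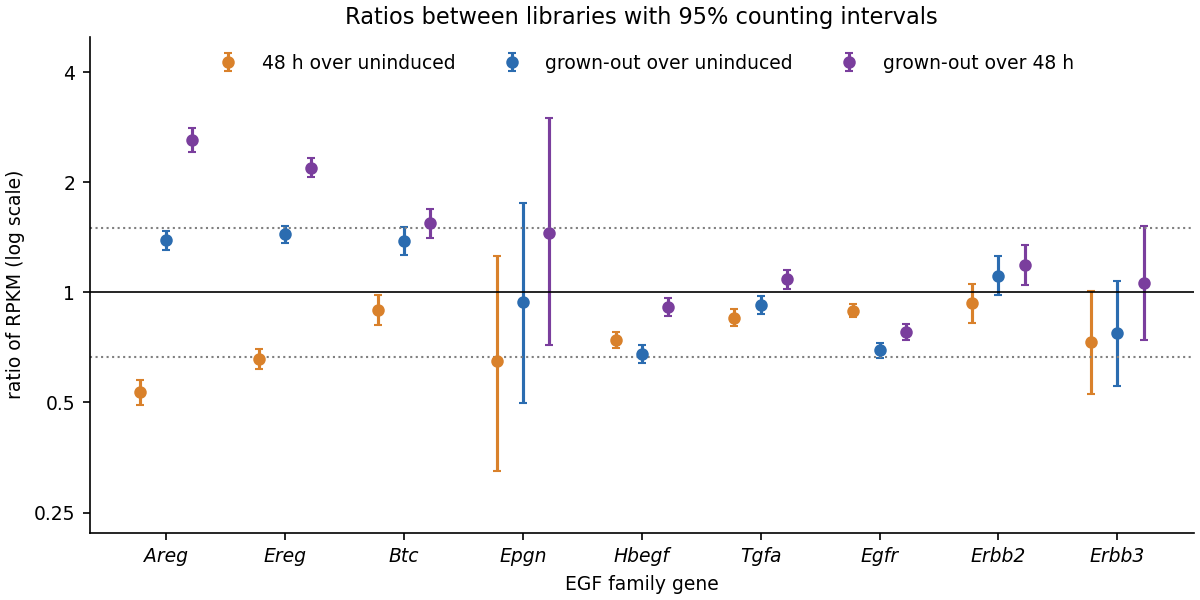
Ratio of RPKM between libraries (vertical axis, log scale) for each member, with 95% counting intervals, a solid line at no change and dotted lines at 1.5-fold. Areg and Ereg lay below 1 at 48 h over uninduced and above 1 at grown-out over uninduced, while Hbegf and Egfr lay below 1 in both.

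The third comparison set grown-out against 48 h cells, and both libraries already served above, so a gene low at 48 h tends to come out high here. Areg had 6.30 RPKM in grown-out cells against 2.41 RPKM at 48 h, 2.61-fold higher (2.43 to 2.81), and only 14 of 7915 measured genes had a larger log2 ratio. Ereg had 3.80 RPKM against 1.73 RPKM at 48 h, 2.19-fold higher (2.06 to 2.33), with 38 genes above it. These were the members called past 1.5-fold, against a background of 3.59% higher and 2.25% lower. Btc was 1.55-fold higher (1.41 to 1.69) as a plain ratio, but its log2 ratio of 0.57 with the pseudocount did not reach the limit. Egfr was 1.28-fold lower in grown-out cells than at 48 h (1.22 to 1.35), and Hbegf 1.10-fold lower (1.03 to 1.16). Tgfa was 1.09-fold higher (1.02 to 1.15) and Erbb2 1.19-fold higher (1.05 to 1.35). By counting error alone 5 of the 9 members were higher in grown-out cells than at 48 h and 2 lower, where 35.6% of all measured genes were higher and 32.0% lower.

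The models within 250 kb of the chromosome 5 ligands were examined to see whether the whole stretch moved. Of 11 models, 4 were members and 7 were not. Mthfd2l, a gene of folate metabolism just upstream of Epgn, had 0.857 RPKM at 48 h and 0.935 RPKM in grown-out cells against 0.974 RPKM in uninduced cells. Parm1, beyond Btc, had 1.89 RPKM at 48 h and 2.19 RPKM in grown-out cells against 2.35 RPKM in uninduced cells. At 48 h both flanking genes were lower than in uninduced cells, Mthfd2l 1.14-fold (1.09 to 1.19) and Parm1 1.24-fold (1.205 to 1.271). In grown-out cells, where Areg, Ereg and Btc were higher, Parm1 was 1.07-fold lower (1.04 to 1.10) and the Mthfd2l interval included no change. Between the doxycycline libraries both were higher in grown-out cells, Mthfd2l at a ratio of 1.09 (1.04 to 1.14) and Parm1 at 1.16 (1.125 to 1.19). Gm19619, between Areg and Btc, had 0.0883 RPKM at 48 h and 0.104 RPKM in grown-out cells against 0.0915 RPKM uninduced, with intervals that included no change. The chemokine gene Cxcl1 had 2.60 RPKM at 48 h and 5.75 RPKM in grown-out cells against 9.28 RPKM uninduced, so it was lower in both and called in both. Between the doxycycline libraries it was 2.21-fold higher in grown-out than in 48 h cells (1.89 to 2.61), called like Areg and Ereg. Cxcl15 had 3 reads at 48 h and 4 in grown-out cells against 39 uninduced, 12.3-fold lower at 48 h (3.92 to 62.4), and was called lower in both. Cxcl2 had 0 reads at 48 h and 6 in grown-out cells against 7 uninduced, and Cxcl3 had 3 or 4 reads in each library.

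**Figure D4:**
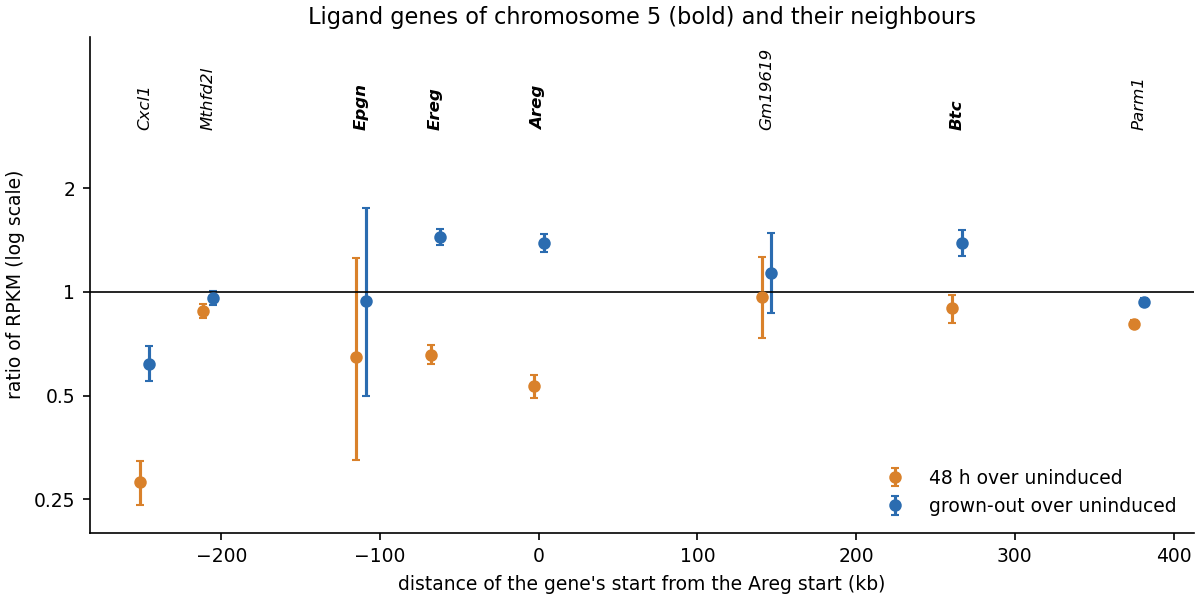
Ratio of RPKM to the uninduced library (vertical axis, log scale, 95% counting intervals) against the distance of each gene's start from the Areg start (horizontal axis, kb), members in bold. The 8 of 11 models with at least 10 reads in each library are drawn. Areg, Ereg and Btc were above 1 in grown-out cells, and Mthfd2l and Parm1 were not.

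The remaining family genes showed a high level of one neuregulin gene and very low levels of its receptors. Nrg1, which encodes a ligand of ERBB3 and ERBB4, had 5.75 RPKM in uninduced cells, 5.28 RPKM at 48 h and 5.74 RPKM in grown-out cells. That is above each member but Hbegf in uninduced cells and Areg in grown-out cells, and at 48 h above all. Its ratio to uninduced cells was 0.918 (0.903 to 0.934) at 48 h and 0.999 (0.982 to 1.02) in grown-out cells. Erbb4 had 4, 6 and 0 reads in the same order, over a model of 1068094 bp. Nrg2 had 0.415, 0.423 and 0.419 RPKM, Egf under 0.1 RPKM throughout, and Nrg1 was the only measured gene of this list of 6.

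Genes that cut and carry the ligands showed small differences where they were measured. Of 12 listed genes, 6 were measured, 5 of these were lower beyond counting error at 48 h, where 30.0% of all measured genes were, and none was called past 1.5-fold, with a median log2 ratio of -0.23. In grown-out cells 2 were higher and 3 lower, where 33.6% of all measured genes were higher and 29.5% lower, and the median was -0.04 against 0.01 over all measured genes. Adam17, the main protease that frees amphiregulin, epiregulin and TGF-alpha, had 0.934 RPKM at 48 h and 0.866 RPKM in grown-out cells against 0.949 RPKM uninduced. Rhbdf1, which helps ADAM17 reach the surface, had 0.692 RPKM at 48 h and 0.930 RPKM in grown-out cells against 0.910 RPKM uninduced. Adam9 had 3.14 RPKM at 48 h and 4.22 RPKM in grown-out cells against 3.53 RPKM uninduced. Of 4 listed genes under the minimum with at least 20 reads summed over the libraries, 2 were lower in grown-out cells, 0 higher and none called. They were Rhbdf2, 1.32-fold lower (1.14 to 1.53), and Timp3, 6.73-fold lower (2.40 to 26.2) on 4 reads against 33. Rhbdf2 was also 1.56-fold lower at 48 h (1.35 to 1.81). Of all such models under the minimum, 32.9% were lower and 10.5% higher in grown-out cells.

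Among genes that restrain the receptors, Errfi1 was the gene with the largest differences. Errfi1 encodes a feedback inhibitor that binds the EGFR kinase, and it had 28.5 RPKM in uninduced cells, 15.7 RPKM at 48 h and 12.4 RPKM in grown-out cells. It was 1.82-fold lower at 48 h (1.77 to 1.86) and 2.30-fold lower in grown-out cells (2.24 to 2.37) than in uninduced cells, on 7099 to 20021 reads. It was called in both comparisons and was the only one of 12 measured genes of this list to be called. Of all measured genes, 3.27% were called lower at 48 h and 2.93% in grown-out cells. Lrig1, which lowers EGFR protein at the surface, had 1.30 RPKM at 48 h and 1.88 RPKM in grown-out cells against 1.88 RPKM uninduced. Lrig3 had 0.704 RPKM at 48 h and 0.497 RPKM in grown-out cells against 0.657 RPKM uninduced. The list's median log2 ratio was -0.01 at 48 h and -0.05 in grown-out cells.

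Most ERK-responsive genes, many of which are switched on by EGFR signalling through RAS, had lower levels in the doxycycline libraries. Of 15 measured, 13 were lower and 1, Etv5, higher beyond counting error at 48 h, 5 were called lower, and the median log2 ratio was -0.41. Over all measured genes 30.0% were lower, 30.1% higher and 3.27% called lower. In grown-out cells 11 were lower and 0 higher, 4 were called lower, and the median was -0.26, where 29.5% of all measured genes were lower and 2.93% called lower. The intervals of Fosl1, Dusp4, Etv4 and Etv5 included no change there. Etv5 had 1.13 RPKM at 48 h and 0.981 RPKM in grown-out cells against 0.974 RPKM uninduced. Areg and Ereg, which are themselves known to respond to ERK signalling, differed from this list in grown-out cells in that they stood above the uninduced level. Egr1 had 2.52 RPKM at 48 h and 1.27 RPKM in grown-out cells against 8.81 RPKM uninduced. Dusp6, a phosphatase that switches off ERK, had 8.23 RPKM at 48 h and 11.0 RPKM in grown-out cells against 18.9 RPKM uninduced. Spry1 had 0.754 RPKM at 48 h and 0.579 RPKM in grown-out cells against 1.63 RPKM uninduced.

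Few genes for the transducing proteins differed past 1.5-fold in nascent RNA. Of 17 measured adaptor and RAS to ERK genes, 7 were higher and 4 lower beyond counting error at 48 h, with 1 called, Mapk3, which encodes ERK1 and was 1.68-fold lower (1.38 to 2.06) on 156 reads against 276 reads uninduced. All measured genes gave 30.1% higher, 30.0% lower and 3.27% called lower. In grown-out cells 6 were higher, 4 lower and none called, where all measured genes gave 33.6% higher and 29.5% lower. Median log2 ratios were 0.03 at 48 h and 0.0 in grown-out cells. Of 8 measured PI3K and AKT genes, 5 were higher and 2 lower in grown-out cells, against those same shares of all measured genes, with a median of 0.17, and Pdpk1, the kinase that activates AKT, had 3.36 RPKM against 2.52 RPKM uninduced.

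Other receptor tyrosine kinase genes gave different counts above and under the expression minimum in grown-out cells, a split that was not tested. Of 22 genes, 7 were measured, with 3 higher and 2 lower beyond counting error in grown-out cells, none called and a median log2 ratio of 0.09. These counts lie near the shares of all measured genes, 33.6% higher and 29.5% lower. Egfr only just passed the expression minimum, and 12 of the other receptor genes lay under it with at least 20 reads summed over the libraries. Of these 12, 8 were lower and 1 higher beyond counting error in grown-out cells, and 4 were called lower: Fgfr1, Ptk7, Ephb2 and Mst1r. Of 5398 gene models under the minimum with as many reads, 32.9% were lower, 10.5% higher and 9.74% called lower. Fgfr1, a fibroblast growth factor receptor, had 0.197 RPKM in grown-out cells against 0.361 RPKM uninduced, 1.83-fold lower on 467 reads against 1047. Ptk7 had 0.111 RPKM in grown-out cells against 0.234 RPKM uninduced, 2.11-fold lower. As plain ratios Fgfr2 was 10.5-fold lower (4.89 to 26.85), on 7 reads against 90, and Fgfr3 2.39-fold lower (1.24 to 4.88), on 13 against 38. Their log2 ratios with the pseudocount, -0.37 and -0.49, did not reach the limit for a call. Over all 22 genes the median log2 ratio was -0.13. Axl had 3.20 RPKM in grown-out cells against 2.53 RPKM uninduced, and Epha2 had 4.88 RPKM against 4.25 RPKM uninduced. Insr had 1.55 RPKM in grown-out cells against 1.75 RPKM uninduced. At 48 h, 5 of the 7 measured genes stood below the uninduced level and 1 above it, by more than counting error. Their median log2 ratio was -0.08. All measured genes gave 30.0% lower and 30.1% higher at 48 h. Epha2, Met and Axl, at 2 to 5 RPKM in each library, were transcribed at higher levels per length than Egfr.

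**Figure D5:**
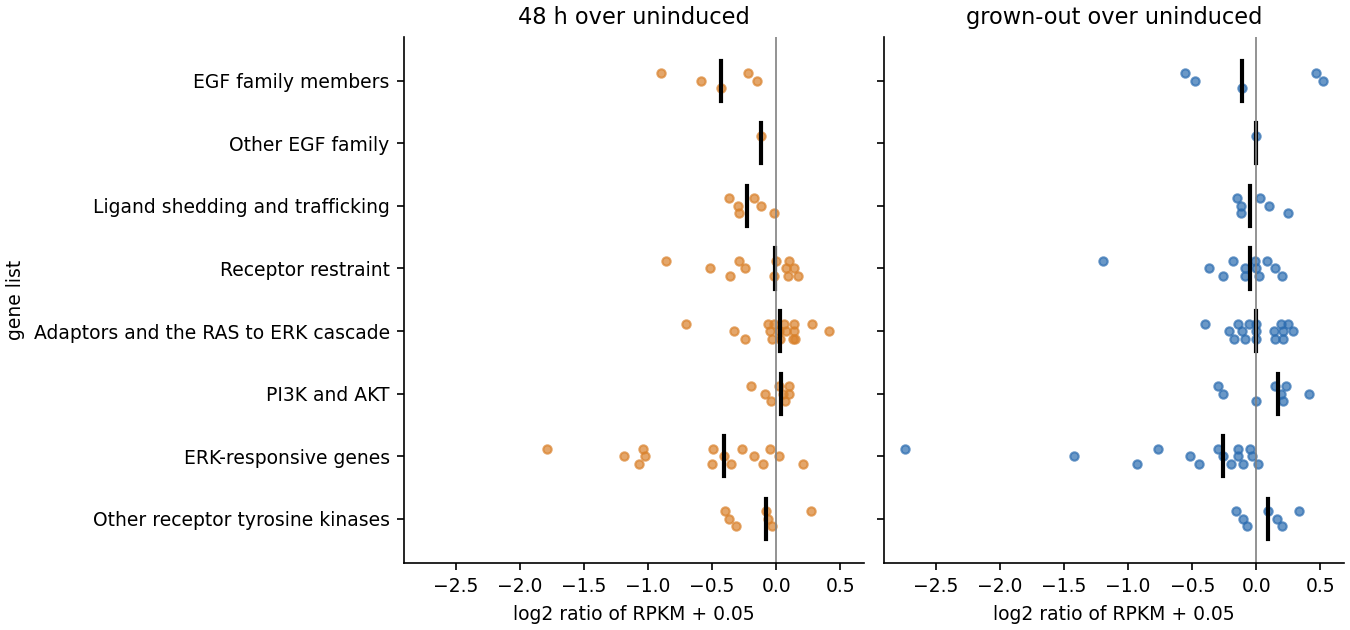
Log2 ratio of RPKM plus 0.05 to the uninduced library for each measured gene (points) of the 8 gene groups, at 48 h (left) and in grown-out cells (right), with the group's median as a black bar. The measured EGF family members lay below 0 at 48 h and on both sides of 0 in grown-out cells, and the ERK-responsive genes lay mostly below 0 in both.

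Genes with the most similar pair of log2 ratios were found by the distance between them over the 48 h and grown-out comparisons, that is, over 3 libraries. The nearest to Areg were Chst1 at a distance of 0.11, Bok at 0.14 and Cdc42ep2 at 0.14, and no gene lay within 0.1. The nearest to Ereg were Klhl21, 4930444G20Rik and D930048N14Rik, at 0.03 to 0.06, with 10 genes within 0.1. For Egfr 85 genes lay within 0.1, the nearest being Lyrm5, Raver1-fdx1l and 5430437P03Rik. Egfr lay nearer to no change than Areg at 48 h, with log2 ratios of -0.15 and -0.9, so these counts do not compare how particular the patterns are.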

How the data were processed

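The deposited files give, for each of 3 Bru-seq libraries, estimated counts of reads per whole gene model, not all of them whole numbers, and RPKM values that the authors scaled by model length and a read total, per the file headers. The tools listed in the submitters' processing notes, without settings, are bedtools 2.16.2, TopHat 1.4.1, CASAVA 1.8.2 and Bowtie 0.12.8. The build listed is the human hg19, although the models carry mouse symbols. The start positions follow the BED convention and were raised by 1 base. Models with a repeated symbol or spanning over 3 Mb, 138 in all, were left out, as were models under 300 bp. Ratios are of deposited RPKM. Their exact conditional binomial intervals use counts rounded to whole reads, and the exact Poisson intervals of levels use the counts unrounded. Reads carry no molecular identifiers, so these cover counting error only. The log2 ratio takes a pseudocount of 0.05 RPKM and understates low genes. Scripts ran in Python 3.11.15 with scipy 1.17.1 and were tested on simulated data. Alternatives used edgeR 4.0.16 (TMM) and DESeq2 1.42.0 (median of ratios) for scaling only. All members were named. Of each list, up to 3 measured genes with the largest difference from uninduced cells in each comparison could be named. Further genes were chosen after their values were seen, among them Nrg2, Egf, Erbb4, Met, Etv5, Fgfr1, Fgfr2, Fgfr3, Ptk7, Rhbdf2 and Timp3. The counts of genes under the minimum were also chosen then. Some genes of the lists are not reported here by name. Members and lists were chosen with earlier results of these data known.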

Additional observations from a re-analysis of the deposited data

Results flagged for a closer look

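Some genes lay on opposite sides of the uninduced level at 48 h and in grown-out cells, beyond counting error in each. With 1 library per condition the difference was not tested. Lower at 48 h and higher in grown-out cells were Areg, with a grown-out over 48 h ratio of 2.61, Ereg at 2.19, Btc at 1.55, Pdpk1 at 1.54, Epha2 at 1.43, Adam9 at 1.35 and Cnih4, an ER export gene, at 1.32. Higher at 48 h and lower in grown-out cells were Gab2 at 0.653, Gab1 at 0.704, Lrig3 at 0.706, Insr at 0.737 and Pik3ca at 0.775. Both comparisons used the same uninduced library.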

How the results depend on the processing

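The count of measured members called at 48 h was 2 of 5. It became 1 with a pseudocount of 0.5 RPKM, which left Areg called. With a threshold of 2-fold it became 0, where 59 of 7915 measured genes were called. In grown-out cells against uninduced cells it was 0. With a looser threshold below 1.5-fold it became 4, of which 2 were higher and 2 lower. At that threshold 1298 of 7915 measured genes were called in either direction. The 2 calls of grown-out against 48 h cells held under the pseudocount, both scalings, both expression minima and the 2-fold threshold. The pseudocount of 0.5 RPKM also lowered the count of all measured genes called, to 138 against 289 at 48 h, 133 against 317 in grown-out against uninduced cells and 171 against 462 in grown-out against 48 h cells. The 54 log2 ratios recomputed under TMM and median-of-ratios scaling stayed within their counting intervals. Of 27 under the larger pseudocount, 11 left them, and no value past counting error turned its direction. The expression minimum moved 14 of 42 list medians beyond the typical counting interval of their genes. No paired analysis was possible because each condition had 1 library. Epgn and Erbb3, with at most 98 reads, are limited by depth.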
